A study of Mus musculus with 9 samples.

Results

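Whole-brain RNA of male C57BL/6 mice was sequenced, and 4 genes of the acute-phase response were followed here: Lcn2, S100a8, S100a9 and Serpina3n, 4 of the 53465 genes in the deposited tables. They were chosen by name after their levels in these same 9 libraries were known, so the differences between groups in these genes are given as a description, without a test. CON mice (n = 3) received standard chow and no streptozotocin. DNP mice (n = 3), a model of diabetic neuropathic pain, received a 60% fat diet for 4 weeks and then streptozotocin, a toxin of the insulin-producing beta cells, at 50 mg/kg per day for 7 days. BAC mice (n = 3) were made diabetic in the same way and were then given intraperitoneal baclofen (8 mg/kg per day for 7 days), which activates GABA-B receptors, while CON and DNP mice were given saline. All mice were 7 weeks old at the start. Diabetic mice entered the study when fasting glucose reached 16.7 mmol/L and paw thresholds, tested 4 weeks after streptozotocin, had fallen, so the DNP and BAC groups hold selected responders. The labels call each library a whole-brain replicate and the study's methods name 3 biological replicates per group, so each was taken as 1 mouse. The p-values therefore measure the spread between libraries, which includes differences in the regions sampled.

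Lipocalin 2, the product of Lcn2, is a secreted protein that binds the iron-carrying siderophores of bacteria, and it is made by neutrophils, by epithelia in inflammation and by reactive astrocytes and endothelium of the brain. S100a8 and S100a9 encode the 2 subunits of calprotectin, a calcium- and zinc-binding complex that fills the cytosol of neutrophils and acts as an alarm signal at Toll-like receptor 4 and the receptor for advanced glycation end products. Serpina3n encodes a secreted serine protease inhibitor, a mouse relative of human alpha-1-antichymotrypsin, made by liver, by reactive astrocytes and by oligodendrocytes. Genes of this kind are induced through C/EBP factors, STAT3 and NF-kappaB when cytokines such as interleukin 1 and interleukin 6 act on a cell.

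In GRCm38, with GENCODE M21 annotation, Lcn2 (ENSMUSG00000026822) lies on the minus strand at chr2:32384633-32388252. S100a8 (ENSMUSG00000056054) lies on the plus strand at chr3:90668978-90670035, and S100a9 (ENSMUSG00000056071) lies on the minus strand at chr3:90692632-90695721, with 22596 bases between the pair. Serpina3n (ENSMUSG00000021091) lies on the plus strand at chr12:104406729-104414329. No other annotated gene overlaps any of them, which matters because the libraries were not strand-specific. None of the 150-base stretches of their annotated transcripts occurs in a transcript of another gene.

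The promoters are shown because these genes are grouped as targets of the same factors. RefSeq promoter sequence (GRCm38.p6) was matched for 4 of 4 genes, and the 250 bases before each start site were searched on both strands. The core of the C/EBP consensus, TTNNGNAA or its reverse complement TTNCNNAA, was found upstream of all 4 genes. The 6 matches are in capitals below, each within 28 bases written 5′ to 3′ on the strand of the gene, with the position of the first matched base relative to the start site.
Lcn2, chr2:32387938-32387965, minus strand, -216: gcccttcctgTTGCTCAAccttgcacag
S100a8, chr3:90668944-90668971, plus strand, -117: atggacttggTTAGGAAAcagaggctgt
S100a9, chr3:90695940-90695967, minus strand, -236: gtaggctgtcTTGCTTAAgatttgggcg
S100a9, chr3:90695834-90695861, minus strand, -130: gggctgggaaTTTCACAAaacatcagag
Serpina3n, chr12:104406471-104406498, plus strand, -227: ctctgaagcaTTTCATAAacagaagact
Serpina3n, chr12:104406642-104406669, plus strand, -56: catgccagcaTTTCCTAAgaggagggag

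These letters are short, and 36.8% of 32851 promoter windows of the same length hold at least 1 match. The stricter form TTGCNNAA, which overlaps it, was found upstream of Lcn2 and S100a9 and in 9.56% of all windows. The STAT palindrome TTCNNNGAA (7.02% of windows) and the kappaB consensus (7.25% of windows) were found upstream of none of the 4 genes. A match, or its absence from these windows, is a description of the letters. The Lcn2 stretch, placed by the RefSeq start, lies inside the longer gene model of GENCODE.

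The libraries held 13107382 to 16008129 counts, and 18501 genes passed the filter on low counts. All 4 genes passed, and Lcn2, S100a8 and S100a9 did so through libraries of the diabetic groups, where their counts are higher. Markers of neurons, astrocytes and microglia were present in every library, as the label of whole brain says, but the regions sampled were uneven. The summed level of 9 brainstem and spinal cord markers was 372 CPM (library-size-scaled counts, with scaling by the trimmed mean of M values, TMM) in DNP replicate 1, 443 in BAC replicate 1 and 372 in BAC replicate 3, against 2.89 to 29.2 in the other 6 libraries. Cerebellum markers, 10 genes, summed to 9675 CPM in CON replicate 2 and to 1018 and 2470 in the other CON libraries. They summed to 466 to 1037 CPM in DNP and 762 to 4828 in BAC. Of these markers, 10 of 10 had lower fitted levels in DNP than in CON (median log2 fold change -3.25). At an unadjusted p under 0.05, 2 of them were lower, against 5.46% of all genes tested. Mitochondrial transcripts took 4.34% to 5.36% of the counts in CON, 6.68% to 7.01% in DNP and 5.94% to 7.23% in BAC, so they separated the CON libraries from the diabetic libraries without overlap. The part of these differences in the levels below was not tested. The 4 genes, and the listed genes named as passing a test, are given with and without the 3 libraries rich in brainstem and cord markers. Without them 2 DNP mice and 1 BAC mouse remain, and the lone BAC mouse is assumed to vary like the other groups. The libraries with the most olfactory bulb markers, DNP replicate 2 and BAC replicate 2, remain too, so the smaller set is also uneven in region.

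Lcn2 was close to absent in CON brain and present in every diabetic brain. Each of the CON libraries held 2 counts. The DNP libraries held 107, 64 and 31 counts, and the BAC libraries held 31, 38 and 15. All 6 diabetic libraries lay above all 3 CON libraries, an order seen in 3.82% of the genes tested. In CPM the level was 0.139 ± 0.00522 in CON, 4.72 ± 2.87 in DNP and 1.94 ± 0.882 in BAC (mean ± SD, n = 3 in each group). A count of 2 has a 95% exact Poisson interval of 0.242 to 7.22, so the even CON values say little of the spread between CON mice.

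The pooled level of Lcn2, its summed counts over summed library totals, was 34.4 times as high in DNP as in CON. Its 95% exact interval of 15.6 to 95.0 covers counting error only. The fitted log2 fold change was 5.00 (SE 0.68), and the lowest DNP library was 14.3-fold above the highest CON library. DNP lay above CON without overlap in 9.59% of the genes tested. In BAC the pooled level was 14.4 times that of CON (6.34 to 40.3), with a log2 fold change of 3.72 (SE 0.68) and a gap of 6.63-fold between the nearest libraries. BAC lay above CON without overlap in 7.21% of the genes tested. The contrasts with CON share the CON libraries and are given side by side for this reason.

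Lcn2 was lower in BAC than in DNP by a log2 fold change of -1.28 (SE 0.52), but the groups overlapped. BAC replicates 1 and 2, at 2.25 and 2.62 CPM, both lay above DNP replicate 3 at 2.04 CPM, and the highest value of DNP, 7.75 CPM, was that of replicate 1. Without DNP replicate 1 the log2 fold change was -0.72, and without the 3 libraries rich in brainstem and cord markers it was -0.28. The difference from CON stayed large without these libraries, at 4.44 for DNP and 4.15 for BAC on the log2 scale. Markers of vessels and meninges also differed between BAC and DNP. Of 6 endothelial markers, 6 had lower fitted levels in BAC (median log2 fold change -0.51), and 3 passed an unadjusted p of 0.05, against 1.00% of all genes tested that were lower. Their sum was 154 to 196 CPM in BAC, 188 to 272 in DNP and 206 to 245 in CON. Of 7 meningeal markers, 7 had higher fitted levels in BAC (median 1.06), and 5 passed, against 1.37% of all genes that were higher. Their sum was 695 to 803 CPM in BAC, 295 to 670 in DNP and 437 to 580 in CON. Without the 3 libraries 1 of the 3 endothelial and 2 of the 5 meningeal calls remained. Their part in the Lcn2 difference was not tested.

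**Figure D1:**
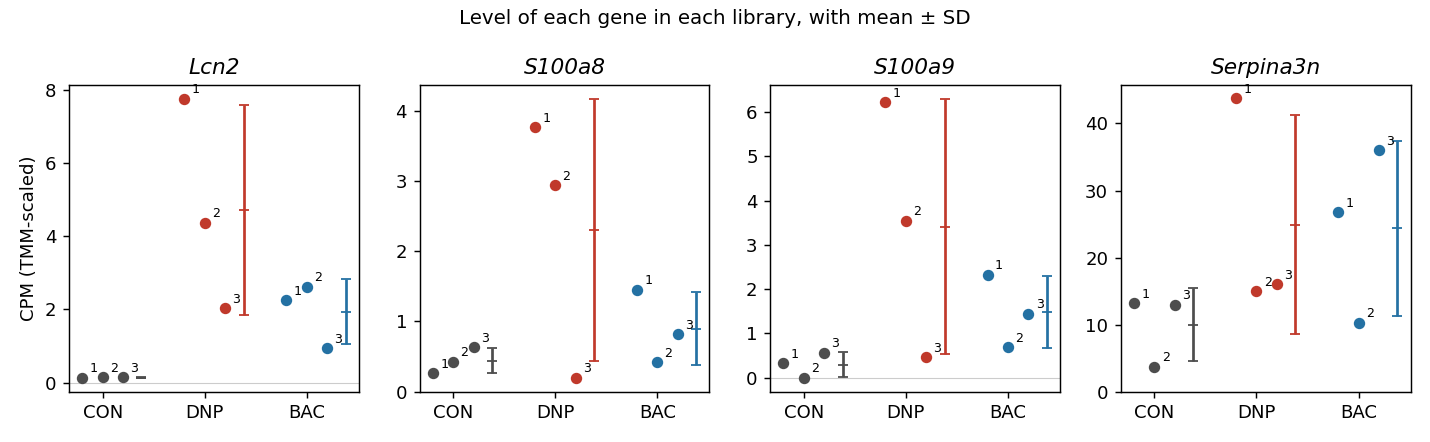
Level of each gene in CPM (TMM-scaled, linear axes that differ between panels) in the 3 libraries of each group, with the replicate number at each point and the mean ± SD beside it. Lcn2 separates the 3 CON libraries from all 6 diabetic libraries, S100a8 and S100a9 are low in DNP replicate 3, and Serpina3n is highest in DNP replicate 1, BAC replicate 3 and BAC replicate 1.

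The calprotectin genes were high in some diabetic brains and at the CON level in others. S100a8 held 4, 6 and 9 counts in CON, 52, 43 and 3 in DNP, and 20, 6 and 13 in BAC. DNP replicate 3 had the lowest S100a8 level of all 9 libraries, 0.197 CPM, while DNP replicate 1 had the highest, 3.77 CPM. Mean S100a8 was 0.442 ± 0.184 CPM (SD, n = 3) in CON, 2.30 ± 1.87 CPM in DNP and 0.895 ± 0.523 CPM in BAC, and every pair of groups overlapped.

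S100a9 held 5, 0 and 8 counts in CON, 86, 52 and 7 in DNP, and 32, 10 and 23 in BAC. The count of 0 in CON replicate 2 has a 95% exact Poisson interval that reaches 3.69 counts. Mean S100a9 was 0.298 ± 0.282 CPM (SD, n = 3) in CON, 3.41 ± 2.89 CPM in DNP and 1.49 ± 0.818 CPM in BAC. DNP overlapped with CON, since DNP replicate 3 at 0.460 CPM lay below CON replicate 3 at 0.562 CPM. All BAC libraries lay above all CON libraries, with a gap of only 1.23-fold between the nearest, an order seen in 7.21% of the genes tested.

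Fitted over all 9 libraries, S100a8 was higher in DNP than in CON by 2.36 (SE 0.92) and S100a9 by 3.47 (SE 1.09) on the log2 scale. The pooled ratios were 5.28 (95% exact counting interval 3.21 to 9.14) and 11.4 (6.47 to 21.9). From DNP to BAC the log2 fold changes were -1.35 (SE 0.86) and -1.19 (SE 0.94), with overlap in both genes. From CON to BAC they were 1.00 (SE 0.93) and 2.28 (SE 1.09). BAC lay below DNP without overlap in 3.41% of the genes tested, and none of the 4 genes was among them.

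The pair moved together across mice. In the 6 diabetic libraries the log2 CPM of S100a8 and S100a9 correlated with Pearson's r = 0.992, and over all 9 libraries with r = 0.857, as a description. By FPKM, a value per length, S100a9 was 1.63 to 3.15 times as high as S100a8 in the diabetic libraries, 1.69 and 1.20 times in CON replicates 1 and 3, and listed at 0 in CON replicate 2. The size of this ratio rests on the lengths behind the FPKM, about 984 bases for S100a8 and 728 for S100a9. Without the 3 libraries rich in brainstem and cord markers, the difference between BAC and CON was -0.096 for S100a8, a change of sign, and 1.18 for S100a9 on the log2 scale. Between DNP and CON it was 1.79 for S100a8 and 2.70 for S100a9, and between BAC and DNP -1.89 and -1.52.

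Genes of neutrophil granules differed in how closely they followed the pair. Ngp, neutrophilic granule protein, had the profile most like S100a8 among 16782 genes (r = 0.944 over 9 libraries). Its counts were 0, 2 and 9 in CON, 41, 35 and 1 in DNP, and 26, 4 and 18 in BAC. Ltf, lactoferrin, held 0, 0 and 11 counts in CON, 42, 23 and 4 in DNP, and 8, 8 and 16 in BAC. Both were thus low in DNP replicate 3 and high in DNP replicates 1 and 2, as the calprotectin genes were. Prtn3, proteinase 3, did not share this profile, with 37, 1 and 13 counts in CON, 27, 29 and 38 in DNP, and 13, 44 and 16 in BAC, highest where S100a8 was low. Camp, the cathelicidin gene, held 0, 5 and 5 counts in CON, 5, 12 and 0 in DNP, and 9, 5 and 5 in BAC. Ngp and Ltf were singled out from the list after their values were seen.

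The whole list of 17 neutrophil markers summed to 8.48 to 12.7 CPM in CON, 13.4 to 27.1 in DNP and 13.7 to 15.2 in BAC. Of these genes, 7 to 13 were at 0 in a CON library, 1 to 9 in a DNP library and 5 to 9 in a BAC library. Ly6g, the defining surface marker of mouse neutrophils, held 3 counts in DNP replicate 1, 2 in BAC replicate 1 and 0 in the other 7 libraries. Only 5 of the 17 markers were abundant enough to test, and 1 of them, Csf3r, the receptor of granulocyte colony-stimulating factor, was higher in DNP than in CON at an unadjusted p under 0.05, against 5.71% of all genes tested. It did not pass without the 3 libraries rich in brainstem and cord markers. Markers of red blood cells were also higher at that threshold, 5 of 5 in DNP against CON (5.71% of all genes) and 5 of 5 in BAC against CON (4.46%), and without the 3 libraries 5 and 4 of them passed. Their sum was 188 to 218 CPM in CON, 477 to 683 in DNP and 471 to 735 in BAC. DNP replicate 3, which had the lowest S100a8 level, had 592 CPM of red-cell markers. The part of blood cells in the calprotectin and Lcn2 levels was not tested, and in whole tissue more cells of a type and more RNA per cell cannot be told apart.

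**Figure D2:**
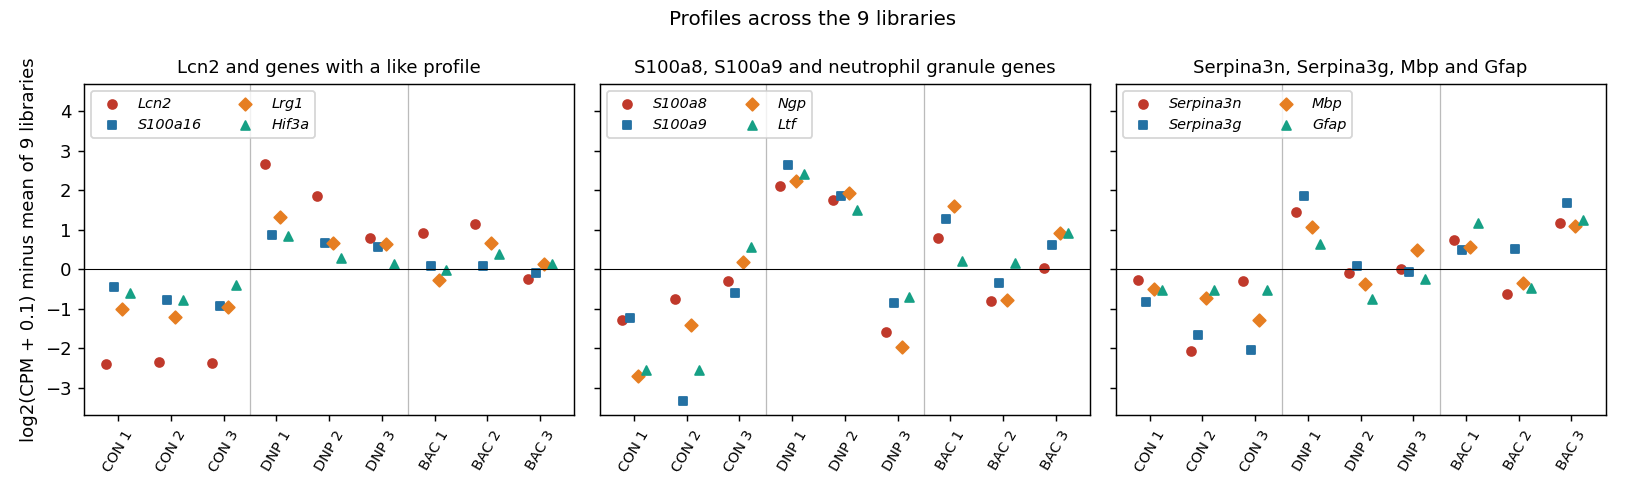
Deviation of log2(CPM + 0.1) from its mean over the 9 libraries for each of the 4 genes and for genes shown with them, with vertical lines between CON, DNP and BAC libraries. Lcn2, S100a16, Lrg1 and Hif3a are lowest in the 3 CON libraries, S100a8, S100a9, Ngp and Ltf are high in DNP replicates 1 and 2 and low in DNP replicate 3, and Serpina3n and Serpina3g are highest in DNP replicate 1 and BAC replicate 3.

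Serpina3n was the most abundant of the 4 genes by mean FPKM and by mean CPM, and it was expressed in CON brain. It held 199, 52 and 185 counts in CON, 604, 220 and 244 in DNP, and 368, 149 and 572 in BAC. By FPKM its mean was 4.65 in CON, 12.1 in DNP and 12.1 in BAC, against 0.0278, 0.971 and 0.404 for Lcn2. The length behind the Lcn2 FPKM, about 4867 bases, exceeds the span of the Lcn2 gene, so these Lcn2 values are too low beside Serpina3n. In CPM the means were 9.97 ± 5.42, 24.9 ± 16.3 and 24.3 ± 13.03 (SD, n = 3). The DNP libraries lay above the CON libraries, as in 9.59% of the genes tested. The gap was 1.14-fold between the nearest, 15.02 CPM in DNP replicate 2 and 13.2 in CON replicate 1. BAC replicate 2, at 10.3 CPM, lay within the CON range.

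On the log2 scale Serpina3n was higher by 1.32 (SE 0.64) in DNP and by 1.29 (SE 0.64) in BAC than in CON. The pooled ratios were 2.51 (95% exact counting interval 2.24 to 2.81) and 2.57 (2.29 to 2.87). Between BAC and DNP the difference was -0.03 (SE 0.63). Its sign turned without DNP replicate 1 (0.65) or BAC replicate 2 (0.33), and it was near 0 under every scaling. The difference between DNP and CON fell to 0.64 without DNP replicate 1, and to 0.92 without CON replicate 2, the CON library with the lowest Serpina3n and the most cerebellum markers.

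The 3 libraries with the highest Serpina3n, DNP replicate 1 at 43.7 CPM, BAC replicate 3 at 36.0 and BAC replicate 1 at 26.7, were those rich in brainstem and cord markers. Without them the difference from CON was 0.63 for DNP and 0.037 for BAC on the log2 scale, and BAC differed from DNP by -0.59. Markers of mature oligodendrocytes, 8 genes, summed to 2151 to 3007 CPM in CON, 3592 to 9052 in DNP and 2894 to 9244 in BAC, and 7 of 8 were higher in DNP than in CON at an unadjusted p under 0.05, against 5.71% of all genes tested. Of these 7, 6 passed without the 3 libraries. In BAC versus CON 6 of 8 were higher (4.46% of all genes), and 0 of these passed without the 3 libraries. Gfap, the intermediate filament of astrocytes, held 5333 counts in DNP replicate 1, 7611 in BAC replicate 1 and 9342 in BAC replicate 3, against 2132 to 3155 in the other 6 libraries. The 6 astrocyte markers, without Gfap, summed to 2797, 3081 and 2985 CPM in these 3 libraries, against 2362 to 3940 in the other 6. In DNP versus CON 1 of them had a higher and 5 a lower fitted level (median log2 fold change -0.25), and in BAC versus CON 3 and 3. At an unadjusted p under 0.05, 1 was lower in DNP, against 5.46% of all genes tested. It was Slc1a3, at -0.80, and -0.71 without the 3 libraries. The part of the region sampled and of these cell types in Serpina3n was not tested. Hepatocyte markers, 6 genes, were at 1.16 to 2.71 CPM in sum in every library.

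**Figure D3:**
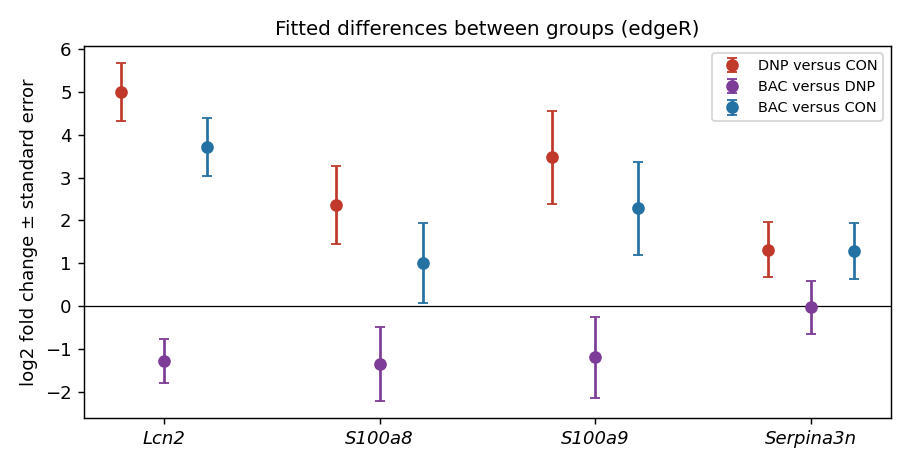
Fitted log2 fold change ± standard error (edgeR, all 9 libraries) of the 4 genes in the 3 comparisons, as a description without a test. Lcn2 has the highest values against CON, 5.00 in DNP and 3.72 in BAC, and Serpina3n is near 0 between BAC and DNP.

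The 4 genes did not share a single profile. Over the 9 libraries Lcn2 correlated with S100a9 at r = 0.810, with S100a8 at r = 0.652 and with Serpina3n at r = 0.584. Within the 6 diabetic libraries these values were 0.660, 0.666 and 0.0651. S100a9 and Serpina3n correlated at r = 0.840 over 9 libraries and at 0.610 within the 6. The points share library depth, the regions sampled and the groups themselves. The FPKM of Serpina3n was 61.3 to 235 times that of Lcn2 in CON and 8.11 to 89.9 times in the diabetic libraries, lowest in DNP replicate 2 and, among diabetic brains, highest in BAC replicate 3. These ratios overstate Serpina3n, since the Lcn2 FPKM uses a length beyond the span of its gene. They can be compared between libraries but do not give relative abundance.

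Genes with the most similar profiles differed between the 4. For Lcn2 these were S100a16 (r = 0.944), Lrg1 (0.944), Hif3a (0.942), Cd52 (0.932) and Slc38a5 (0.930). Lrg1 encodes leucine-rich alpha-2-glycoprotein, a secreted acute-phase protein, and its CPM was 1.78 to 2.11 in CON, 6.63 to 10.72 in DNP and 3.49 to 6.77 in BAC. Cd52 encodes a leukocyte surface glycoprotein. S100a16, another member of the S100 calcium-binding family, was at 16.79 to 23.61 CPM in CON, 47.49 to 58.52 in DNP and 30.04 to 34.38 in BAC.

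After Ngp, S100a8 was most like Paqr7 (0.939), Zfp605 (0.902), Gm12174 (0.902) and Mmp19 (0.893), and S100a9 was most like Plcg2 (0.946), Arhgef6 (0.926), Gm16168 (0.919), Gpt2 (0.914) and Rnd3 (0.913). Plcg2 encodes a phospholipase C of immune-cell signaling, and in the brain of microglia. Serpina3n was most like Smim1 (0.979), Zan (0.977), Rcan2 (0.968), Ccdc126 (0.967) and Cmpk2 (0.964). No gene stood in the lists of 2 of the 4 genes.

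Genes related to the 4 were counted from 11 lists, chosen with earlier results of these data known. The lists hold receptors, inducers, paralogs and partners, and also other acute-phase, astrocyte reactivity and glucocorticoid response genes. Of 132 distinct genes, 87 were abundant enough to test. In edgeR's quasi-likelihood test no gene of the 18501 passed a Benjamini-Hochberg adjusted p of 0.05 in any comparison, with smallest adjusted p of 0.294 for DNP versus CON, 0.998 for BAC versus DNP and 0.622 for BAC versus CON. At an unadjusted p under 0.05, 2067, 438 and 1436 genes passed, and DESeq2 called 346, 7 and 101 genes at an adjusted p under 0.05. The counts below use the unadjusted threshold.

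In DNP versus CON, 13 of the 87 listed genes were higher (14.9%, against 5.71% of all genes tested) and 1 was lower (1.15%, against 5.46%). Of these 13, 6 came from the list of 12 glucocorticoid response genes, which are not receptors, inducers, paralogs or partners of the 4. The median log2 fold change was 0.28, against 0.013 over all genes. In BAC versus DNP, 1 was higher (1.15%, against 1.37%) and 4 were lower (4.60%, against 1.00%), with a median of -0.085. In BAC versus CON, 14 were higher (16.1%, against 4.46%) and 2 were lower (2.30%, against 3.30%), with a median of 0.20.

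Single libraries moved some of these counts. In DNP versus CON the count of lower genes became 2 without CON replicate 2 and 0 without CON replicate 3 or DNP replicate 3. In BAC versus DNP the count of higher genes became 7 when DNP replicate 1 was left out, 4 without BAC replicate 2, and 0 without DNP replicate 3 or BAC replicate 1, and the count of lower genes became 2 without DNP replicate 2 and 0 without BAC replicate 1. In BAC versus CON the 14 higher genes became 9 without CON replicate 3, and 8 and 7 when BAC replicate 1 or BAC replicate 3 was left out. The 2 lower genes became 0 without CON replicate 1 or BAC replicate 1, 1 without CON replicate 3, 4 without CON replicate 2 and 5 without BAC replicate 2.

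Among genes that take up lipocalin 2 or handle iron, 1 of 17 tested was higher in DNP and none lower, a share of 5.88% beside 5.71% of all genes tested. That gene was Fth1, the ferritin heavy chain, with a level of 1293 ± 234 CPM in CON. It reached 2762 ± 857 CPM in DNP and 2345 ± 684 CPM in BAC (SD, n = 3), a log2 fold change of 1.10 (SE 0.30) in DNP, and 0.85 (SE 0.26) without the 3 libraries. Fth1 has processed pseudogenes that can share its reads. Slc22a17, the lipocalin 2 receptor, did not pass, at 416 ± 99.3 CPM in CON, 585 ± 54.2 in DNP and 487 ± 146 in BAC. In BAC versus CON 3 were higher (4.46% of all genes tested), Fth1, Bdh2 and the endocytic receptor Lrp2. The iron exporter Slc40a1 was the 1 that was lower (3.30% of all genes). None of the 4 passed without the 3 libraries. Lrp2 held 31 and 33 counts in BAC replicates 1 and 3 and 6 in BAC replicate 2, within the CON range of 4 to 12, and its log2 fold change without the 3 libraries was -0.17 (SE 0.96). For Bdh2 it was 0.37 (SE 0.53), for Fth1 0.35 (SE 0.33) and for Slc40a1 -0.53 (SE 0.24).

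Among receptors and adaptors of calprotectin, 1 of 7 tested was higher in DNP and none lower, a share of 14.3% beside 5.71% of all genes tested. It was Cd14, the co-receptor of Toll-like receptor 4, with counts of 25, 19 and 31 in CON, 67, 36 and 48 in DNP, and 46, 50 and 40 in BAC. Its log2 fold change was 1.01 (SE 0.33) in DNP and 0.84 (SE 0.33) in BAC. The values were 0.68 (SE 0.34) and 0.98 (SE 0.42) without the 3 libraries, and neither passed. Tlr4 itself differed by -0.14 (SE 0.41) and Ager, the receptor for advanced glycation end products, by -0.09 (SE 0.54), and neither passed.

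Of 10 paralogs of Serpina3n, Serpina3g alone was abundant enough to test. It held 7, 3 and 2 counts in CON, 48, 14 and 13 in DNP, and 18, 19 and 49 in BAC. Every diabetic library thus lay above every CON library, an order seen in 3.82% of the genes tested. Serpina3g, like Lcn2, passed the filter through the diabetic libraries, where its counts are higher, so this order is a description only. The other paralogs were too low to test in either direction. Its log2 fold change was 2.64 (SE 0.75) in DNP and 2.76 (SE 0.75) in BAC, with Benjamini-Hochberg adjusted p of 0.327 and 0.628 (edgeR). The log2 values were 1.68 (SE 0.60) and 2.21 (SE 0.70) without the 3 libraries, both at an unadjusted p under 0.05. None of its 150-base transcript stretches occurs in another gene. Serpina3c held 0 to 2 counts in CON, 14, 2 and 2 in DNP, and 5, 4 and 9 in BAC. Of 4 proteases that Serpina3n binds, only Mmp9, matrix metalloproteinase 9, was tested, and it did not pass, at 0.11 (SE 0.55) in DNP versus CON.

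Most cytokines that induce these genes were low. Il1b held 0 to 7 counts, Il6 0 to 2 and Tnf 0 to 3 in any library, while Il1a reached 12 and Lif 16. Of 8 cytokines only Il22 was tested. It held 0, 42 and 13 counts in CON, 7, 0 and 0 in DNP, and 24, 0 and 11 in BAC. It did not pass, with a log2 fold change of -2.92 (SE 1.76) in DNP versus CON. The highest Il22 counts were in CON replicate 2 and BAC replicate 1, the libraries with the most cerebellum markers (9675 and 4828 CPM). The part of the region sampled in Il22 was not tested. Of the cytokine receptors and the transcription factors downstream, 3 of 17 tested were higher in DNP, against 5.71% of all genes tested. They were Cebpd, the C/EBP factor of acute-phase induction, Nfkbia, the NF-kappaB inhibitor that NF-kappaB itself induces, and Il1r1, the interleukin 1 receptor. Cebpd was at 3.77 ± 0.572 CPM (SD, n = 3) in CON, 8.78 ± 2.24 CPM in DNP and 5.08 ± 1.42 CPM in BAC, a log2 fold change of 1.22 (SE 0.29) in DNP versus CON and of -0.79 (SE 0.29) in BAC versus DNP. Nfkbia differed by 0.70 (SE 0.15) and -0.44 (SE 0.15) in the same contrasts. With Cebpd it was 1 of the 2 genes of this list that were lower in BAC than in DNP, against 1.00% of all genes tested. These contrasts share the DNP libraries. Lepr, the leptin receptor, was higher in BAC than in DNP by 0.82 (SE 0.30). Without the 3 libraries Cebpd at 1.20 (SE 0.32) and Nfkbia at 0.73 (SE 0.16) still passed in DNP versus CON and Il1r1 at 0.48 (SE 0.31) did not. In BAC versus DNP Nfkbia at -0.62 (SE 0.22) passed, while Cebpd at -0.38 (SE 0.43) and Lepr at 0.42 (SE 0.48) did not. Socs3, the feedback inhibitor of STAT3, did not pass, at 0.58 (SE 0.53) in DNP versus CON.

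Among 22 other acute-phase genes only 6 were abundant enough to test, and 1 was higher in DNP, against 5.71% of all genes tested. C4b, complement component 4, was at 31.8 ± 6.00 CPM in CON, 71.7 ± 8.17 in DNP and 67.9 ± 10.1 in BAC, a log2 fold change of 1.17 (SE 0.19) in DNP and 1.09 (SE 0.19) in BAC. Both passed without the 3 libraries, at 1.08 (SE 0.20) and 0.88 (SE 0.25). Mouse C4a is nearly identical to C4b, and the counting could split reads between them. C3, complement component 3, was higher in BAC than in CON by 3.44 (SE 1.13), with counts of 10, 4 and 6 in CON and 114, 5 and 105 in BAC, and its high BAC libraries were those rich in brainstem and cord markers. It was -0.41 (SE 0.75) without the 3 libraries and did not pass. The classical liver proteins were near 0: Saa1 held 0 to 5 counts, Saa3 0 to 3, and Crp 0 in all 9 libraries. Haptoglobin, Hp, which neutrophils also store, held 2, 4 and 0 counts in CON, 21, 17 and 0 in DNP, and 5, 7 and 7 in BAC. It was not abundant enough to test.

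In the lists of astrocyte reactivity, no pan-reactive gene of 8 tested was higher in DNP and 1, Cd44, was lower, against 5.46% of all genes. Its log2 fold change was -1.22 (SE 0.53), and -2.01 (SE 0.44) without the 3 libraries. No A1 gene of 11 passed in any of the 3 comparisons. Of 10 A2 genes 1, again Cd14, was higher in DNP, against 5.71% of all genes tested. In BAC versus CON 2 pan-reactive genes, Gfap and Hspb1, and 3 A2 genes, Cd109, Emp1 and Cd14, were higher, against 4.46% of all genes tested. Without the 3 libraries Gfap was at 0.050 (SE 0.24) and Hspb1 at 0.47 (SE 0.49). Cd109 was at 0.51 (SE 0.56), Emp1 at 0.33 (SE 0.44) and Cd14 at 0.98 (SE 0.42). Of 12 glucocorticoid response genes, a list with Hif3a among the genes most like Lcn2, 6 were higher in DNP and none lower. Over all genes tested the shares were 5.71% and 5.46%. The 3 with the smallest p were the metallothionein gene Mt1 at 0.77 (SE 0.18), Hif3a at 1.05 (SE 0.23) and the kinase gene Sgk1 at 1.41 (SE 0.34). All 3 passed without the 3 libraries, at 0.63 (SE 0.20), 0.80 (SE 0.20) and 1.08 (SE 0.23), and 4 of the 6 did in all. In BAC versus DNP 2 of the 12, Sgk1 and Arl4d, were lower, at -0.87 (SE 0.34) and -1.16 (SE 0.48), against 1.00% of all genes tested. Without the 3 libraries they were at -0.72 (SE 0.32) and -0.86 (SE 0.72). In BAC versus CON 3, Mt1, Mt2 and Hif3a, were higher (4.46% of all genes tested) and 1, Zbtb16, was lower (3.30% of all genes). Without the 3 libraries Mt1 was at 0.50 (SE 0.24), Mt2 at 0.15 (SE 0.28), Hif3a at 0.96 (SE 0.25) and Zbtb16 at -1.23 (SE 0.72).

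**Figure D4:**
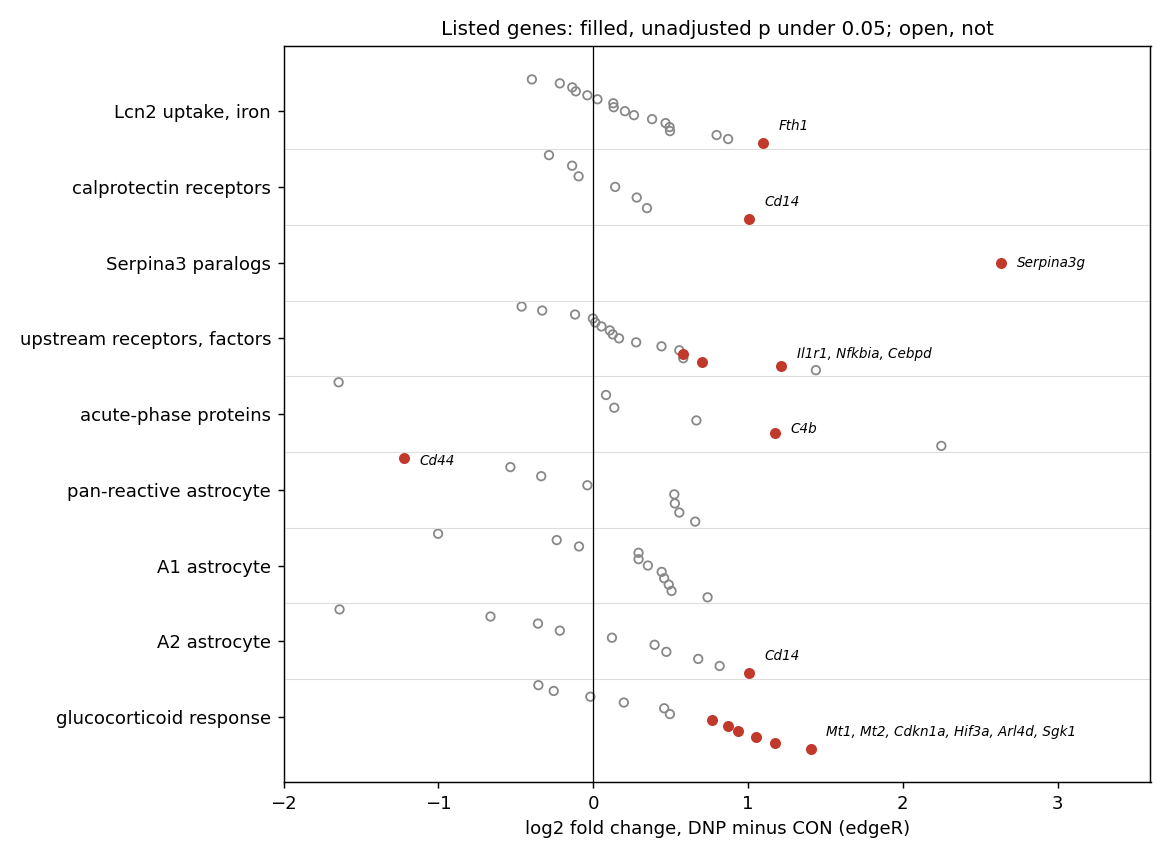
Log2 fold change in DNP versus CON (edgeR) of each listed gene that was tested, by list, with genes at an unadjusted p under 0.05 filled in red and named from left to right, and the others open. The protease and cytokine lists, with 1 tested gene each, are not drawn. Cd14 stands in 2 lists, and Serpina3g has the highest value at 2.64.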

How the data were processed

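Poly(A) RNA from the brains of 9 mice, 3 each in CON, DNP and BAC, was sequenced without strand information. Per the study's methods and the submitters' processing notes, the authors checked reads with FastQC 0.11.9, filtered them with fastp, aligned them to GRCm38 with HISAT2 2.1.0 (Bowtie2 2.3.4.1 is also named) and quantified genes with StringTie 1.3.3b. The authors deposited tables of raw counts and of FPKM. TMM is named in the methods, but each FPKM value equals the count over a constant length and the total of its library. The treatment of multi-mapped reads is not given in the sources used here.

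Counts were analysed in R 4.3.3 with edgeR 4.0.16: genes kept by filterByExpr (minimum count 10), TMM, and a quasi-likelihood fit of all 9 libraries with group as the factor, with Benjamini-Hochberg adjustment over 18501 genes. Group levels are TMM-scaled CPM, levels between genes are FPKM, and correlations used log2 CPM with a prior count of 2. The FPKM lengths are those of the deposited values, and that of Lcn2 is longer than its gene. The biological coefficient of variation was 36.5%, and totals of 13107382 to 16008129 counts set the precision. Intervals and limits cover counting error only. Pooled ratios are of summed counts over summed library totals, without TMM. The pipeline was tested on simulated data.

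The 4 genes, the 11 gene lists and the marker lists were chosen with earlier results of these data known. Genes named are the 4, up to 3 genes per list and direction with the smallest p among those past an unadjusted p of 0.05 (DNP versus CON or BAC versus DNP), receptors and paralogs with values, and the 5 genes of at least 1 CPM most like each. Other genes passing in BAC versus CON and marker genes were named once their values were known. Alternatives were DESeq2 1.42.0, other scaling, no filter, 2 groups only, a replicate block, limma 3.58.1 on log2 FPKM and each library left out. Leaving out the 3 libraries rich in brainstem and cord markers was chosen after seeing the data.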

Additional observations from a re-analysis of the deposited data

How the results depend on the processing

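Values of the 4 genes under alternative settings were compared with the reported log2 fold change, within 1 SD of log2 CPM between mice of a group. Of 176 values, 166 stayed within it, 9 moved further with the same sign, and 1 moved further and changed sign. That spread is wide. For Serpina3n in DNP versus CON it was 0.95, so a fall from 1.32 to 0.63 without the 3 libraries rich in brainstem and cord markers stayed within it. Serpina3n in BAC versus DNP, whose value is near 0, changed sign in 4 of 15 settings within that spread. With limma on log2(FPKM + 1), which understates changes of low genes by its construction, Lcn2 was 0.90 and S100a9 1.73 in DNP versus CON, and 0.44 and 1.12 in BAC versus CON. With log2(FPKM + 0.1), Lcn2 was 2.91 and 1.91. Without the 3 libraries rich in brainstem and cord markers, BAC versus DNP was -0.28 for Lcn2, and BAC versus CON was -0.096 for S100a8, 1.18 for S100a9 and 0.037 for Serpina3n. The cause was not tested.

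With each library left out in turn, DNP versus CON ranged over 4.45 to 5.36 for Lcn2, 1.81 to 2.90 for S100a8, 2.71 to 4.26 for S100a9 and 0.64 to 1.58 for Serpina3n. BAC versus DNP ranged over -1.64 to -0.72, -1.90 to -0.80, -1.71 to -0.43 and -0.42 to 0.65, and BAC versus CON over 3.44 to 4.05, 0.48 to 1.35, 1.72 to 3.07 and 0.89 to 1.65. S100a8 and S100a9 did not pass the filter when only the 2 groups of DNP versus CON or of BAC versus CON were fitted, and have no value there.

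The count of lower listed genes in DNP versus CON was 0 without TMM and 0 with only 2 groups. The count of higher ones in BAC versus DNP was 3 with DESeq2, 2 without the filter, 3 with only 2 groups and 0 without the 3 libraries, and in BAC versus CON it was 5 without them. Left out in turn, libraries gave 10 to 14 higher and 0 to 2 lower genes in DNP versus CON, 0 to 7 and 0 to 5 in BAC versus DNP, and 7 to 14 and 0 to 5 in BAC versus CON. Replicate numbers did not pair the mice: same-number correlations ran from -0.579 to 0.560, with 3 of 9 pairs over 0.1, and 2 of 9 libraries correlated best with their own number. The replicate block gave 2 higher listed genes in BAC versus DNP in place of 1, and log2 fold changes of 4.88 for Lcn2 and 1.42 for Serpina3n in DNP versus CON. With 2 counts of Lcn2 in each CON library, depth limits how far its ratio to CON can be known.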
